A study of Mus musculus with 30 samples.

Results

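The genes described are 10 members of the insulin-like growth factor (IGF) system: the ligand gene Igf1, the receptor genes Igf1r and Insr, the docking protein gene Irs1, and the binding protein genes Igfbp2 to Igfbp7. They were chosen by name and found through their Ensembl identifiers, as 10 of the 78334 gene identifiers counted. Another 70 genes of IGF and insulin signalling were read beside them.

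IGF-1 and insulin act through a pair of closely related receptor tyrosine kinases, which phosphorylate IRS proteins and so switch on PI3 kinase, AKT and mTOR, while AKT keeps FOXO transcription factors out of the nucleus. IGF-binding proteins are secreted, hold IGFs away from the receptor or store them in the matrix, and are cleared by proteases such as PAPP-A. In the vessel wall the system is known for promoting growth, migration and survival of smooth muscle cells, and for acting together with platelet-derived growth factor.

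The RNA was that of cultured mouse cells whose label reads aortic smooth muscle, held without serum for 48 h and transfected for at least 24 h, in 30 libraries from sequencing runs 2 and 3. The study manipulated CASC15, a long noncoding RNA gene, with GapmeRs, antisense oligonucleotides that direct RNase H to an RNA, or with a plasmid. Run 2 held untreated cells only: a control GapmeR (2 libraries), a GapmeR labelled as total CASC15 knockdown (2), a control plasmid (3) and total CASC15 overexpression (3). Run 3 held groups of 4: the knockdown control without treatment, with angiotensin II (10 ng/ml) or with PDGF-BB (10 to 30 ng/ml), and knockdown of long CASC15 without treatment or with angiotensin II, each treatment for 24 h. PDGF-BB, a mitogen for smooth muscle, was given to control cells only. The labels give no strain, age, genotype or clone, the growth protocol speaks of mouse and rat cells together, and "total" and "long" are not defined. Each library carries a batch label, P16 to P19, which follows the replicate number, and no group of run 2 has P16. The GapmeR groups of run 2 have no P19 library either.

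Libraries held 18007184 to 21881948 counts in run 2 and 15771489 to 30362053 in run 3. Levels are CPM values, counts scaled to library size within each run, and p-values measure the spread between libraries that the labels do not describe as separate animals. The transcript read as mouse CASC15 by its place beside Sox4, 2610307P16Rik, measured 9.01 ± 1.02 CPM where the label reads total CASC15 knockdown and 7.02 ± 0.913 CPM in the GapmeR controls beside it (SD, n = 2 each), so that group is named by its label below. It measured 716 ± 174 CPM under overexpression against 6.42 ± 2.34 CPM in plasmid controls (SD, n = 3 each), and 2.87 ± 0.561 CPM under long CASC15 knockdown against 5.52 ± 0.530 CPM in untreated controls of run 3 (SD, n = 4 each). Under PDGF-BB it measured 3.61 ± 0.831 CPM in control cells (SD, n = 4), lower than untreated by a log2 fold change of -0.62 (edgeR adjusted p = 0.0101). Of the markers of smooth muscle, Acta2 lay at 96.5 to 441 CPM and Smtn at 42.2 to 103 CPM. Cnn1 never passed 5 counts, Tagln stayed at or below 3.45 CPM and Myh11 at or below 6.67 CPM. Myocd, Des and Lmod1 reached at most 3.97, 2.33 and 1.77 CPM. The fibroblast markers Dcn (563 to 2180 CPM) and Col14a1 (77.5 to 447 CPM) were abundant, as was the epithelial cadherin Cdh1 (35.1 to 195 CPM), while Epcam, Cdh5, Tie1 and Ptprc were at or near 0. The cells are therefore called by their label only, and in bulk RNA fewer cells of a type and less RNA per cell cannot be told apart.

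The binding protein genes Igfbp7 and Igfbp3 were the most abundant members and Igfbp5 was close to absent. Levels of different genes were compared per kilobase of merged exons, over which the ligand gene's long alternative tails also count. In the untreated controls of run 3, Igfbp7 stood at 161 ± 19.9 and Igfbp3 at 100.0 ± 20.1 CPM per kilobase (SD, n = 4). A middle tier followed, with Irs1 at 7.39 ± 0.428, Insr at 6.93 ± 0.211, Igf1 at 4.56 ± 0.323 and Igf1r at 1.89 ± 0.277 CPM per kilobase, in which Irs1 and Insr differed by little more than their spread. Igfbp4 (0.868 ± 0.0910), Igfbp2 (0.543 ± 0.402) and Igfbp6 (0.437 ± 0.173 CPM per kilobase) were lowest, and the spread of Igfbp2 overlapped those of Igfbp4 and Igfbp6.

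In the GapmeR controls of run 2 the top of this order was not separated, with Igfbp7 at 51.7 ± 5.05 and Igfbp3 at 46.4 ± 5.38 CPM per kilobase (SD, n = 2). Igf1r came next there at 9.41 ± 1.58 CPM per kilobase, ahead of Insr, Irs1 and Igf1. Igfbp5, whose protein binds the extracellular matrix, had 0 counts in most libraries and at most 7, in the plasmid control of batch P19. A count of 0 allows up to 3 counts, or 0.102 to 0.190 CPM across libraries, and Igfbp5 was not tested. The other 9 members passed the filter on low counts in both runs.

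**Figure D1:**
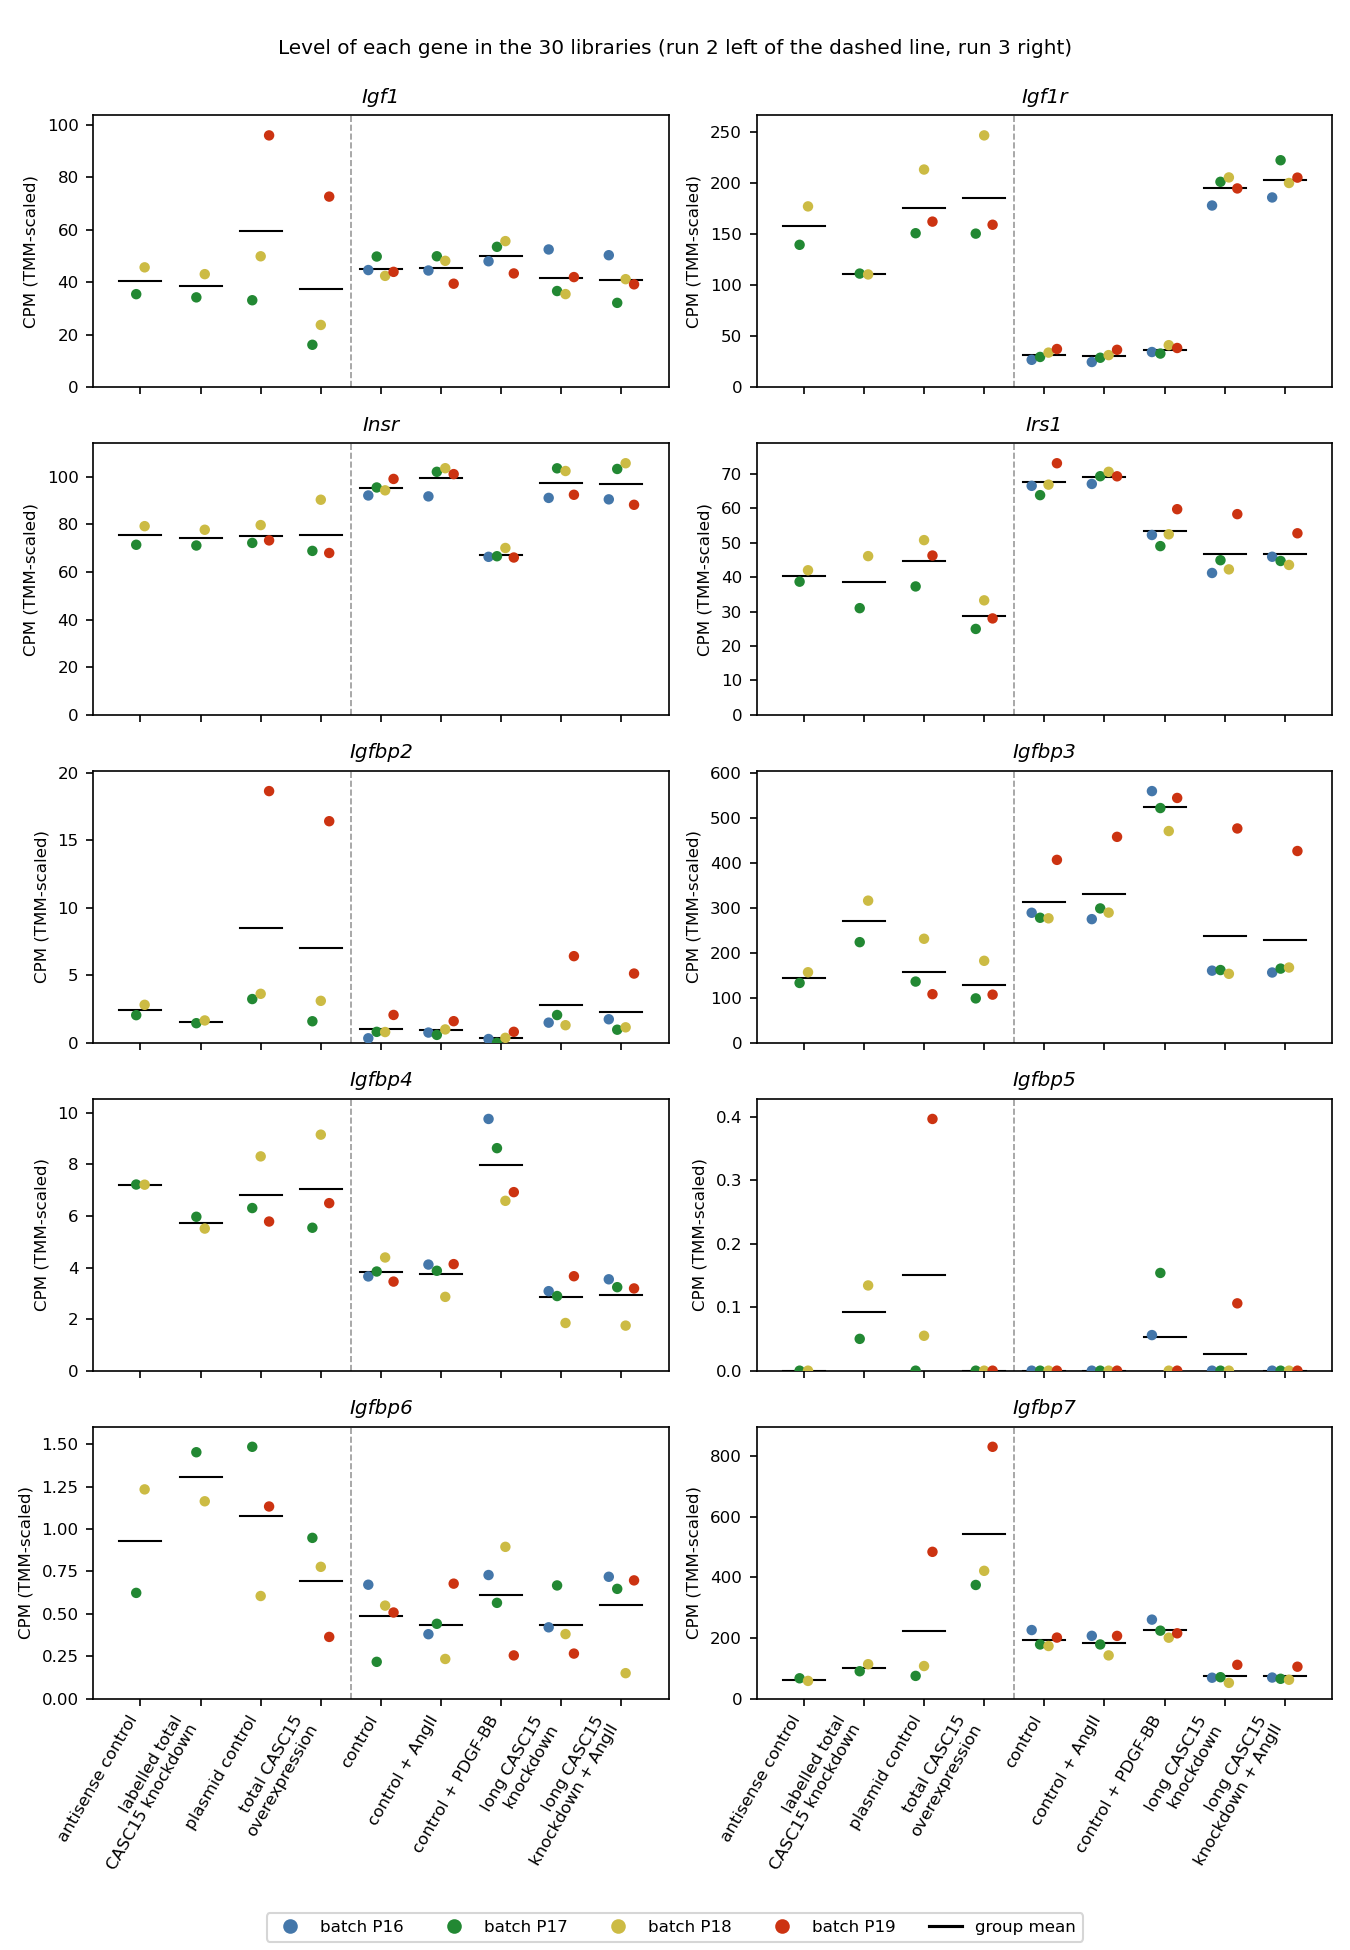
Level of each of the 10 genes in all 30 libraries, in CPM on an axis from 0 (a different scale in each panel); points are libraries coloured by batch, horizontal lines are group means. Igf1r sits at 24.6 to 41.0 CPM in the 12 control libraries of run 3 and at 178 to 222 CPM in the 8 libraries with long CASC15 knockdown.

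Ligands other than IGF-1 were hardly transcribed. Igf2, which encodes the other IGF, reached at most 12 counts in a library, and the insulin genes Ins1 and Ins2 had 0 counts in every library. Igf2r, which clears IGF-2 without signalling, ranged from 138 to 281 CPM, and Irs2, the second main docking protein, from 33.0 to 53.1 CPM. Igfbp1, Igfals and Pappa, the gene of PAPP-A, stayed at or below 6 counts.

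Knockdown of long CASC15 raised Igf1r and lowered Irs1 and Igfbp7, with or without angiotensin II. A gene is called at an adjusted p under 0.05 in the edgeR quasi-likelihood test, adjusted by the Benjamini-Hochberg method over all genes tested. In untreated cells 3 of 9 members were called, where 25.0% of all genes tested were, and with batch as a replicate block 4 of 9, where 40.6% were. Under angiotensin II the calls were again 3 of 9 against 26.7% of all genes, and 5 of 9 against 41.3% with the block. These shares lie near the background, so it is the size of single changes that is described. The median log2 fold change of the 9 members was -0.18 untreated and -0.16 under angiotensin II, against 0.02 and 0.01 over all genes tested.

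Markers of other cell types moved in the same comparisons. Both epithelial markers tested fell, Cdh1 and Krt8, and the summed level of the 4 epithelial markers was 97.6 to 129 CPM in untreated controls and 36.6 to 69.9 CPM with the knockdown, with Epcam and Krt18 at 9 counts or fewer. Of 5 fibroblast markers tested 2 rose and 2 fell untreated (1 and 2 under angiotensin II), and their summed level was 1894 to 2080 CPM in controls and 1858 to 2325 CPM with the knockdown. Of 7 smooth muscle markers tested, 2 rose and 1 fell in each setting. Of the 6 proliferation markers (Mki67, Top2a, Ccnb1, Plk1, Aurkb and Bub1b), 1 fell untreated and 2 fell under angiotensin II, and with the replicate block 5 and 6 fell. Their summed level was 27.0 to 131 CPM in untreated knockdown libraries against 93.0 to 206 CPM in controls, and 26.1 to 119 against 107 to 243 CPM under angiotensin II. The part of all these markers in the levels of the members, Igf1r, Irs1 and Igfbp7 included, was not tested.

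Igf1r, the IGF-1 receptor, changed most. The untreated controls measured 26.7, 29.5, 33.8 and 37.3 CPM in batches P16 to P19, and the long CASC15 knockdown libraries 178, 201, 205 and 194 CPM. The lowest knockdown library thus stood far above the highest control. The log2 fold change was 2.61 ± 0.113 (SE, n = 4 against 4), or 6.11-fold, with an edgeR adjusted p of 1.09e-11. Within batches the log2 difference lay between 2.38 and 2.76.

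The same gene measured 24.6, 28.7, 31.3 and 36.5 CPM in controls under angiotensin II and 186, 222, 200 and 205 CPM in the matching knockdown libraries. Again the groups were widely apart, with a log2 fold change of 2.75 ± 0.115 (SE, n = 4 against 4; edgeR adjusted p = 5.12e-12). Over every alternative fit the log2 fold change of Igf1r stayed between 2.53 and 2.69 in untreated cells and between 2.65 and 2.85 under angiotensin II.

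Irs1, whose protein passes the receptor signal to PI3 kinase, fell. Untreated controls measured 66.5, 63.8, 66.8 and 73.0 CPM, and long CASC15 knockdown 41.2, 44.9, 42.2 and 58.3 CPM. The groups did not overlap, and the P19 library was the highest of each. Irs1 fell by 0.53 on the log2 scale (SE 0.0923, n = 4 against 4; edgeR adjusted p = 0.000242), to 69.0% of the control level.

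Under angiotensin II, Irs1 measured 67.0, 69.3, 70.5 and 69.2 CPM in controls and 45.9, 44.7, 43.5 and 52.7 CPM with the knockdown, again without overlap. It fell by 0.56 (log2, SE 0.0926, edgeR adjusted p = 0.000148). Exons of Gm9747 lie across 2822 bases of Irs1 on the opposite strand, and the counting is not stated to use strand, so reads of the overlap cannot be told apart.

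Igfbp7 encodes a secreted protein that binds IGFs weakly and is also a part of the vascular matrix. Controls measured 226, 179, 173 and 201 CPM, and long CASC15 knockdown 68.7, 70.4, 51.7 and 111 CPM. All knockdown libraries were below all controls, with the P19 library nearest to them. Igfbp7 fell by 1.37 on the log2 scale (SE 0.204, n = 4 against 4; edgeR adjusted p = 8.77e-05), to 38.8% of the control level.

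With angiotensin II the controls stood at 207, 178, 142 and 207 CPM and the knockdown libraries at 69.3, 65.1, 61.9 and 105 CPM for Igfbp7. The groups were again separate, and the gene fell by 1.28 (log2, SE 0.204, edgeR adjusted p = 0.000164). Exons of Polr2b, on the opposite strand, overlap 85 bases of Igfbp7. Polr2b itself was not called in these comparisons (log2 fold changes 0.08 and 0.11, edgeR adjusted p = 0.295 and 0.167).

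The 250 bases before the start of these 3 genes are shown because they were called together, and no binding or chromatin data stand beside them. They come from RefSeq on mouse build GRCm38.p6, 5′ to 3′ on the gene's strand, with capitals for GC boxes, the letters GGGCGG or their reverse complement.
Igf1r (chr7:67952007-67952256, + strand): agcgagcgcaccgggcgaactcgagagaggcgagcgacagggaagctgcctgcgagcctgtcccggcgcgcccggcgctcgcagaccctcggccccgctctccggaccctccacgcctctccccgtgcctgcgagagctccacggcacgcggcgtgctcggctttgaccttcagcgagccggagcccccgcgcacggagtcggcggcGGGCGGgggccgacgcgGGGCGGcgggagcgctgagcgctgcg
Irs1 (chr1:82291440-82291689, - strand): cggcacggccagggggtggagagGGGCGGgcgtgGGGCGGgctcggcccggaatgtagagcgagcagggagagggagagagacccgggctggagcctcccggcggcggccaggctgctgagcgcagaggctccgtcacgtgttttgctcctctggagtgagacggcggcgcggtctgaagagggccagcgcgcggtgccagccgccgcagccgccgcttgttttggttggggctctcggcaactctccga
Igfbp7 (chr5:77408046-77408295, - strand): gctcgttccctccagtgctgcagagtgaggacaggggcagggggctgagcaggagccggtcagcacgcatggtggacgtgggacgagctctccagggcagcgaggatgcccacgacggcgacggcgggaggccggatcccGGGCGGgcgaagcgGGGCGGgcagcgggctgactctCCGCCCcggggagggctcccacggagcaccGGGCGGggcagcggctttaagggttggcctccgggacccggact
Igf1r and Irs1 each held 2 GC boxes and Igfbp7 held 4, in windows of 77.6%, 72.4% and 74.0% G and C against a median of 52.4% over all 32851 windows. A GC box was found in 32.7% of all windows, so its presence is common. Other motifs were searched on both strands and not found in these 3 windows. They were the AP-1 site TGAGTCA, which 4.46% of all windows held, the FOXO site written as GTAAACA (3.17% of windows), and the cAMP response element written as TGACGTCA (1.55%). The E2F site, searched as TTTCGCGC and also in the form TTTGGCGC (0.654% of windows hold either), and the TATA box were not found there. Windows were matched for 9 of 10 members, all but Insr.

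Igfbp3, the main IGF carrier of serum, separated by batch under long CASC15 knockdown. Controls measured 289, 278, 277 and 407 CPM and knockdown libraries 161, 162, 154 and 477 CPM. In P16 to P18 the knockdown was well below its control, and in P19 it was above it. Igfbp3 was not called (log2 fold change -0.39 ± 0.373, SE, n = 4 against 4; edgeR adjusted p = 0.475; with the replicate block 0.0804).

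Without the long CASC15 knockdown library of P19 the value for Igfbp3 was -0.98 (edgeR adjusted p = 0.0230), and without all P19 libraries it was -0.83 (edgeR adjusted p = 1.56e-11). Under angiotensin II the controls measured 275, 299, 290 and 458 CPM and the knockdown libraries 156, 165, 168 and 427 CPM. The first 3 knockdown libraries lay below every control and the P19 library inside their range, but there it was below the P19 control, so Igfbp3 was lower with the knockdown in 4 of 4 batches. The log2 fold change was -0.53 ± 0.374 (edgeR adjusted p = 0.321), and with the replicate block -0.62 (edgeR adjusted p = 0.0428), a call. It was -1.02 without the knockdown library of P19 and -0.83 without all P19 libraries (edgeR adjusted p = 0.0321 and 1.79e-11).

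The proliferation marker Mki67 moved with this batch. It measured 1.68 to 3.56 CPM in the untreated long CASC15 knockdown libraries of P16 to P18 and 31.5 CPM in that of P19, and 1.62 to 4.19 against 30.1 CPM under angiotensin II. Its part in the levels of Igfbp3 was not tested.

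Igfbp2, a binding protein linked to proliferating and developing tissues, was scarce but higher under long CASC15 knockdown in each of 4 batches. Controls had 8, 15, 16 and 61 counts (0.336 to 2.07 CPM) and knockdown libraries 32, 37, 24 and 121 counts (up to 6.42 CPM). The P19 library was the highest of both groups, and the groups overlapped through it. Igfbp2 was not called without the block (log2 fold change 1.45 ± 0.682, edgeR adjusted p = 0.129), was called with the replicate block (1.44, edgeR adjusted p = 0.00242), and was called without all P19 libraries (1.32, edgeR adjusted p = 0.0321).

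Under angiotensin II, Igfbp2 measured 0.760, 0.588, 0.993 and 1.60 CPM in controls and 1.75, 0.971, 1.15 and 5.13 CPM with the knockdown. Higher values stood with the knockdown in 4 of 4 batches, but the groups overlapped. Its log2 fold change was 1.20 ± 0.705 (edgeR adjusted p = 0.224), and 1.02 with the replicate block (edgeR adjusted p = 0.0312).

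Of the remaining members, none was called under long CASC15 knockdown. Igf1 had log2 fold changes of -0.12 ± 0.129 and -0.16 ± 0.129 (untreated and angiotensin II), and Insr 0.03 ± 0.0641 and -0.04 ± 0.0642 (SE, n = 4 against 4). Igfbp4, whose protein chiefly inhibits IGF action, gave -0.41 ± 0.222 and -0.35 ± 0.224, with edgeR adjusted p-values of 0.185 and 0.258. Igfbp6, which prefers IGF-2, had 3 to 16 counts in these libraries and gave -0.18 ± 0.489 and 0.35 ± 0.498.

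**Figure D2:**
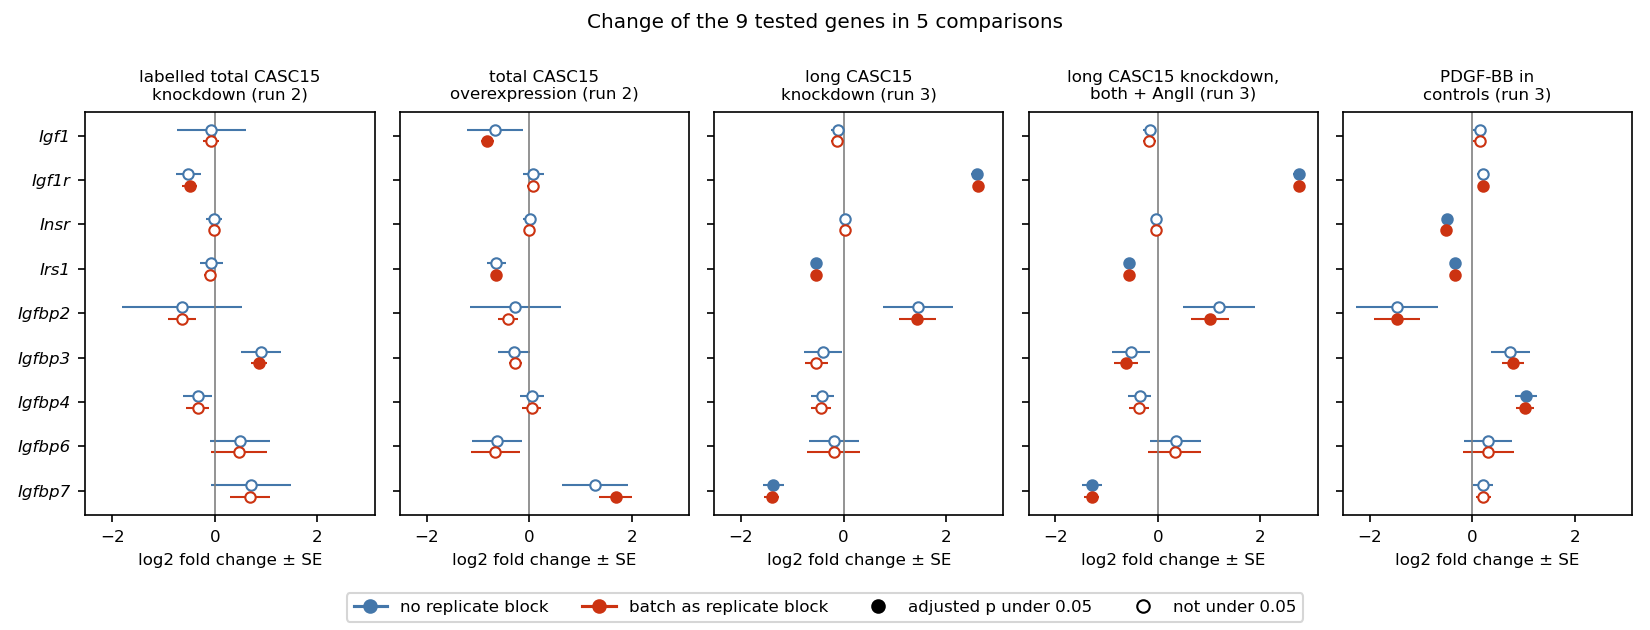
Log2 fold change ± SE of the 9 tested genes in 5 comparisons, without (blue) and with (red) batch as a replicate block; filled points have an edgeR adjusted p under 0.05. Igf1r is the farthest point in these panels at 2.61 and 2.75, and Irs1 is filled on the lower side in both long CASC15 knockdown panels and under PDGF-BB.

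The levels of Igf1r in the controls differed between the runs. The GapmeR controls of run 2 measured 139 and 177 CPM and its plasmid controls 151, 213 and 162 CPM, against 26.7 to 37.3 CPM in the untreated controls of run 3. The long CASC15 knockdown libraries of run 3, at 178 to 205 CPM untreated, stood in the range of the run 2 controls, and every run 3 control stood below every library of run 2. Set side by side as CPM scaled within each run, the mean of the run 3 untreated controls was lower than that of the run 2 GapmeR controls by a log2 difference of -2.31. As large a difference in either direction was found for 2.55% of 14185 genes.

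For Igfbp7 the GapmeR controls of run 2 measured 66.8 and 58.2 CPM, close to the knockdown libraries of run 3 and not to its controls, with a log2 difference of 1.64 between the control means (6.30% of genes as large). The plasmid controls of run 2 did not share this likeness throughout: they measured 74.7, 107 and 484 CPM, and the last lay above every run 3 control. Irs1 measured 38.7 and 42.0 CPM in those run 2 controls, below the run 3 controls by a log2 difference of 0.74 (26.3% of genes as large) and near the run 3 knockdown libraries. Between the same control groups Igfbp2 differed by -1.20 (12.0% of genes as large), Igfbp3 by 1.11 (13.7%), Igfbp4 by -0.89 (20.1%) and Igfbp6 by -0.81 (23.1%), and Insr and Igf1 less, by 0.34 and 0.16. Under untreated knockdown Igfbp3 measured 154 to 162 CPM in P16 to P18, near the run 2 GapmeR controls at 133 and 157 CPM, but 477 CPM in P19. Igfbp2 had a knockdown mean of 2.82 CPM, with 6.42 CPM in P19, against 2.43 CPM in run 2 controls and 1.00 CPM in run 3 controls. Not all members had knockdown levels near run 2. The mean of Igfbp4 was 7.21 CPM in run 2 controls, 3.84 CPM in run 3 controls and 2.87 CPM with the knockdown. For Igfbp6 these means were 0.929, 0.486 and 0.433 CPM, so both were farther from run 2. Sequencing run, cell preparation and everything else that differed between the runs cannot be told apart, and the difference has no test.

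**Figure D3:**
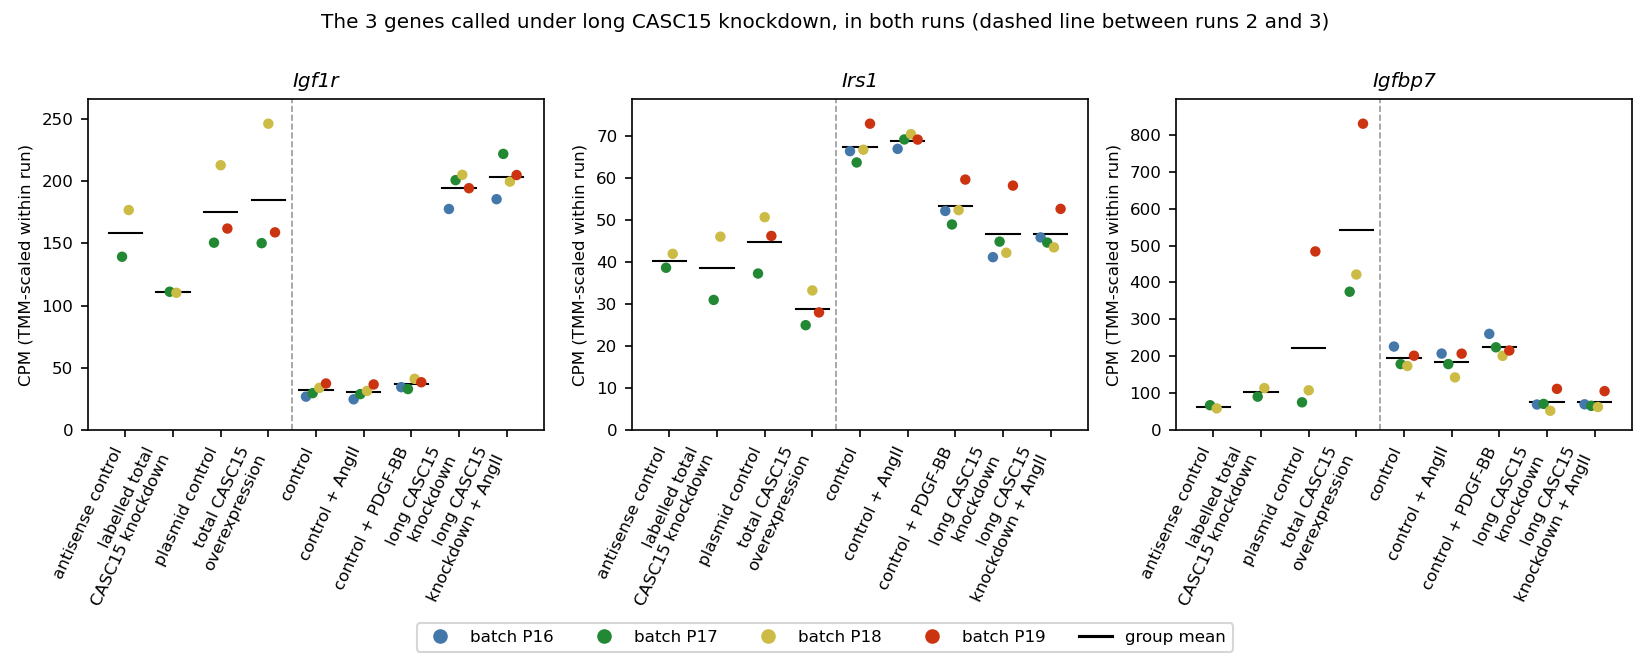
CPM of Igf1r, Irs1 and Igfbp7 in every library, on axes from 0, run 2 left and run 3 right of the dashed line; points are libraries coloured by batch and lines are group means. For Igf1r and Igfbp7 the long CASC15 knockdown libraries of run 3 lie nearer to the GapmeR controls of run 2 (means 158 and 62.5 CPM) than to the controls of run 3 (31.8 and 195 CPM).

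Angiotensin II, a vasoconstrictor peptide and smooth muscle growth factor, gave no member call. Called genes were 0.0% of all genes tested in control cells, in long CASC15 knockdown and for the difference between those responses, and 0.0% with the replicate block in each. By edgeR 156, 174 and 166 genes had an unadjusted p under 0.05 in these tests, and DESeq2 called 1, 0 and 1. Of the 9 members, 0 had an unadjusted p under 0.05 by edgeR in any of the 3, and DESeq2 called 0. The log2 fold changes of the members ranged from -0.18 to 0.08 in controls and from -0.32 to 0.35 with the knockdown. For Igf1r the response was -0.07 ± 0.111 in controls and 0.06 ± 0.105 with the knockdown (SE, n = 4 against 4), and the difference between them was 0.14 ± 0.153 (edgeR adjusted p = 1.00). Among the 70 pathway genes, 0 of 58 tested were called, with 1, 2 and 3 at an unadjusted p under 0.05.

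PDGF-BB lowered both Insr and Irs1 and raised Igfbp4 in control cells. Of 9 members tested, 3 were called where 43.6% of all genes were, and 6 with the replicate block where 54.5% were. These comparisons share their untreated controls with those of the untreated long CASC15 knockdown. All 6 proliferation markers rose, with a summed level of 1489 to 1582 CPM against 93.0 to 206 CPM untreated, and 4 of 5 tested fibroblast markers fell (summed level 685 to 996 against 1894 to 2080 CPM). The epithelial markers summed to 157 to 199 CPM against 97.6 to 129 CPM untreated, with 1 of 2 tested called higher, and the smooth muscle markers to 196 to 219 against 241 to 276 CPM, with 1 called higher and 1 lower of 7. The part of these shifts in the levels of the members was not tested.

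Insr, the insulin receptor, measured 92.1, 95.5, 94.3 and 99.0 CPM untreated and 66.4, 66.6, 70.1 and 66.1 CPM under PDGF-BB. The groups were tight and did not overlap. Insr fell by 0.50 (log2, SE 0.0646, n = 4 against 4; edgeR adjusted p = 3.31e-06), to 70.7% of the untreated level. In no other comparison was it called.

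Irs1 measured 52.2, 49.0, 52.4 and 59.7 CPM under PDGF-BB, all below its lowest untreated library at 63.8 CPM. It fell by 0.34 (log2, SE 0.0920, n = 4 against 4; edgeR adjusted p = 0.00513), to 78.9% of the untreated level. In P16 to P19 the log2 difference lay between -0.38 and -0.29.

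Igfbp4 measured 3.65, 3.84, 4.39 and 3.45 CPM untreated and 9.76, 8.63, 6.59 and 6.92 CPM under PDGF-BB. Every treated library was above every untreated one, by a log2 fold change of 1.06 ± 0.214 (SE, n = 4 against 4; edgeR adjusted p = 0.000472), or 2.08-fold. The 250 bases before its start (RefSeq, GRCm38.p6) are shown too, with capitals for a TATA box, the letters TATAAA. Of all windows 12.4% held these letters on either strand.
Igfbp4 (chr11:99040994-99041243, + strand): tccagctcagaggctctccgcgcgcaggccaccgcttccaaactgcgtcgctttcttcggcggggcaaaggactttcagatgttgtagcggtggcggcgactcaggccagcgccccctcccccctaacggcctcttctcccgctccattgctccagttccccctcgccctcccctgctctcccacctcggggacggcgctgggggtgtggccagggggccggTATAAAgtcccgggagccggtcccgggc
The window held 0 GC boxes and was 69.2% G and C. Those of Igf1, Igfbp3, Igfbp5 and Igfbp6 also held 0 GC boxes, and the Igfbp2 windows held 3 and 0. Of the other members' windows, Igfbp6 alone held these TATA letters.

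Igfbp3 measured 560, 522, 471 and 545 CPM under PDGF-BB against 277 to 407 CPM untreated, with no overlap. Its log2 fold change was 0.75 ± 0.373 (edgeR adjusted p = 0.119), and it was called with the replicate block (0.79, edgeR adjusted p = 0.00913). It was also called without all P19 libraries (0.88, edgeR adjusted p = 1.36e-12) and with only the groups compared in the fit (0.71, edgeR adjusted p = 0.00125). P19 had the smallest of the 4 within-batch differences, 0.42 against up to 0.95. The untreated P19 library was the highest of its group for Igfbp3.

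Igfbp2 had 5, 0, 7 and 16 counts under PDGF-BB against 8, 15, 16 and 61 untreated, lower in 4 of 4 batches. The log2 fold change was -1.46 ± 0.803 (edgeR adjusted p = 0.151), and with the replicate block -1.47 (edgeR adjusted p = 0.00798), a call made also without the P19 libraries (-1.55, edgeR adjusted p = 0.0402). Igf1r measured 34.3, 32.8, 41.0 and 38.3 CPM under PDGF-BB, overlapping its untreated libraries. It gave 0.20 ± 0.110 (edgeR adjusted p = 0.150), with the replicate block 0.20 (edgeR adjusted p = 0.0264), and 0.31 without the untreated P19 library (edgeR adjusted p = 0.0365). Igf1, Igfbp6 and Igfbp7 were not called by either fit, at 0.15 ± 0.128, 0.30 ± 0.475 and 0.21 ± 0.199.

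Total CASC15 overexpression gave 0 of 9 members called where 1.65% of all genes were. By edgeR 1 member had an unadjusted p under 0.05, Irs1, and DESeq2 called the same gene alone (DESeq2 adjusted p = 0.0340). With the replicate block 3 of 9 were called, where 17.7% of all genes were: Igf1 and Irs1 lower and Igfbp7 higher. Batch P19 stood apart in both groups for 3 members. The epithelial markers summed to 66.4 to 150 CPM under overexpression and 44.6 to 64.1 CPM in plasmid controls, without overlap. The proliferation markers summed to 101 to 438 against 50.8 to 296 CPM, with 0 of 6 called without and 6 of 6 called higher with the replicate block. The part of these markers in the levels of the members was not tested.

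Igfbp7 measured 74.7, 107 and 484 CPM in the plasmid controls of P17, P18 and P19 and 375, 422 and 831 CPM in the overexpression libraries. Overexpression was higher in 3 of 3 batches, by 0.78 to 2.33 on the log2 scale, but the P19 control lay above the first pair of overexpression libraries. The log2 fold change was 1.29 ± 0.639 (SE, n = 3 against 3; edgeR adjusted p = 0.389) and with the replicate block 1.69 ± 0.330 (edgeR adjusted p = 0.0274). It was 2.58 without the P19 plasmid control (edgeR adjusted p = 0.00909) and 2.13 without both P19 libraries (edgeR adjusted p = 0.000815).

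Irs1 measured 37.3, 50.7 and 46.3 CPM in plasmid controls and 25.0, 33.3 and 28.0 CPM under overexpression, without overlap. Its log2 fold change was -0.64 ± 0.179 (edgeR adjusted p = 0.127), and -0.64 with the replicate block (edgeR adjusted p = 0.00117). Igf1 measured 33.1, 49.8 and 95.9 CPM in controls and 16.1, 23.7 and 72.6 CPM under overexpression, lower in 3 of 3 batches with overlapping groups. It gave -0.67 ± 0.553 (edgeR adjusted p = 0.621), and -0.82 with the replicate block (edgeR adjusted p = 0.00231). Igf1r was not called by either fit (0.08 ± 0.205), nor were Insr (0.01 ± 0.124), Igfbp2 (-0.27 ± 0.891), Igfbp3 (-0.29 ± 0.317), Igfbp4 (0.05 ± 0.230) and Igfbp6 (-0.63 ± 0.496).

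The libraries labelled total CASC15 knockdown also gave 0 of 9 members called, where 2.07% of all genes were, with 1 member (Igfbp3) at an unadjusted p under 0.05 by edgeR. DESeq2 called 0. With the replicate block 2 of 9 were called, where 14.4% of all genes were. Igfbp3 measured 133 and 157 CPM in the GapmeR controls and 224 and 316 CPM in the labelled knockdown libraries, with no overlap. Its log2 fold change was 0.90 ± 0.390 (SE, n = 2 against 2; edgeR adjusted p = 0.379), and 0.87 with the replicate block (edgeR adjusted p = 0.00563).

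Igf1r measured 139 and 177 CPM in those controls and 111 and 110 CPM in the labelled knockdown libraries. The log2 fold change was -0.51 ± 0.253 (edgeR adjusted p = 0.447), and -0.49 with the replicate block (edgeR adjusted p = 0.0457). Its sign was thus opposite to that under long CASC15 knockdown; the difference between the runs' comparisons was not tested. Igfbp7 (90.1 and 113 against 66.8 and 58.2 CPM) was not called by either fit. It was called with no filter on low counts (0.69, edgeR adjusted p = 0.00646) and with only the groups compared in the fit (0.69, edgeR adjusted p = 0.0244), as was Igfbp3 (0.89 and 0.88, edgeR adjusted p = 5.27e-05 and 0.0265). Igfbp2 and Igfbp4 were lower without overlap but not called, at -0.64 ± 1.17 and -0.33 ± 0.282. Igf1, Insr, Irs1 and Igfbp6 overlapped, at -0.07 ± 0.676, -0.02 ± 0.152, -0.06 ± 0.217 and 0.50 ± 0.586. The leukocyte markers, of which Cd68 and Csf1r were the most abundant, summed to 16.9 to 20.5 CPM in these libraries and to at most 1.75 CPM elsewhere. Summed levels of other marker lists did not overlap those of the GapmeR controls either. With 2 libraries against 2, groups of unchanged genes often separate, for these lists and for the members above alike. The share of all genes without overlap is not given here. Proliferation markers summed to 67.2 to 128 against 21.9 to 36.3 CPM, epithelial markers to 72.5 to 95.4 against 44.2 to 45.1 CPM and fibroblast markers to 827 to 868 against 1012 to 1095 CPM. Endothelial markers summed to 2.51 to 3.85 against 1.11 to 1.43 CPM, and smooth muscle markers, nearly touching, to 195.5 to 214 against 175 to 195.4 CPM. Their part in the levels of the members was not tested.

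In batch P19 the levels of 4 members departed from the other batches, in different groups. In run 2 the P19 library of the plasmid control exceeded the mean of the others 5.43-fold for Igfbp2, 5.32-fold for Igfbp7 and 2.31-fold for Igf1. Under overexpression the ratios were 6.98, 2.09 and 3.65 for the same genes. In run 3 the ratio for Igfbp3 was 3.01 and 2.62 in the long CASC15 knockdown groups, 1.45 and 1.59 in the untreated and angiotensin II controls, and 1.05 under PDGF-BB. In run 2 Igfbp3 went the other way, with ratios of 0.588 in the plasmid controls, where P19 was the lowest library, and 0.762 under overexpression.

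Igfbp2 was highest in P19 in 7 of 7 groups with such a library. Igf1 and Igfbp7 did not stand apart in P19 in the controls of run 3, with ratios of 0.827 to 0.963 and 0.942 to 1.18. In the long CASC15 knockdown groups the ratio was 1.75 untreated and 1.60 under angiotensin II for Igfbp7, and 1.01 and 0.951 for Igf1. Mki67 in run 2 was 9.19 and 14.6 CPM in the plasmid controls of P17 and P18 and 49.0 CPM in that of P19, and 16.4, 28.3 and 77.9 CPM under overexpression. Its part in the batch differences was not tested.

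**Figure D4:**
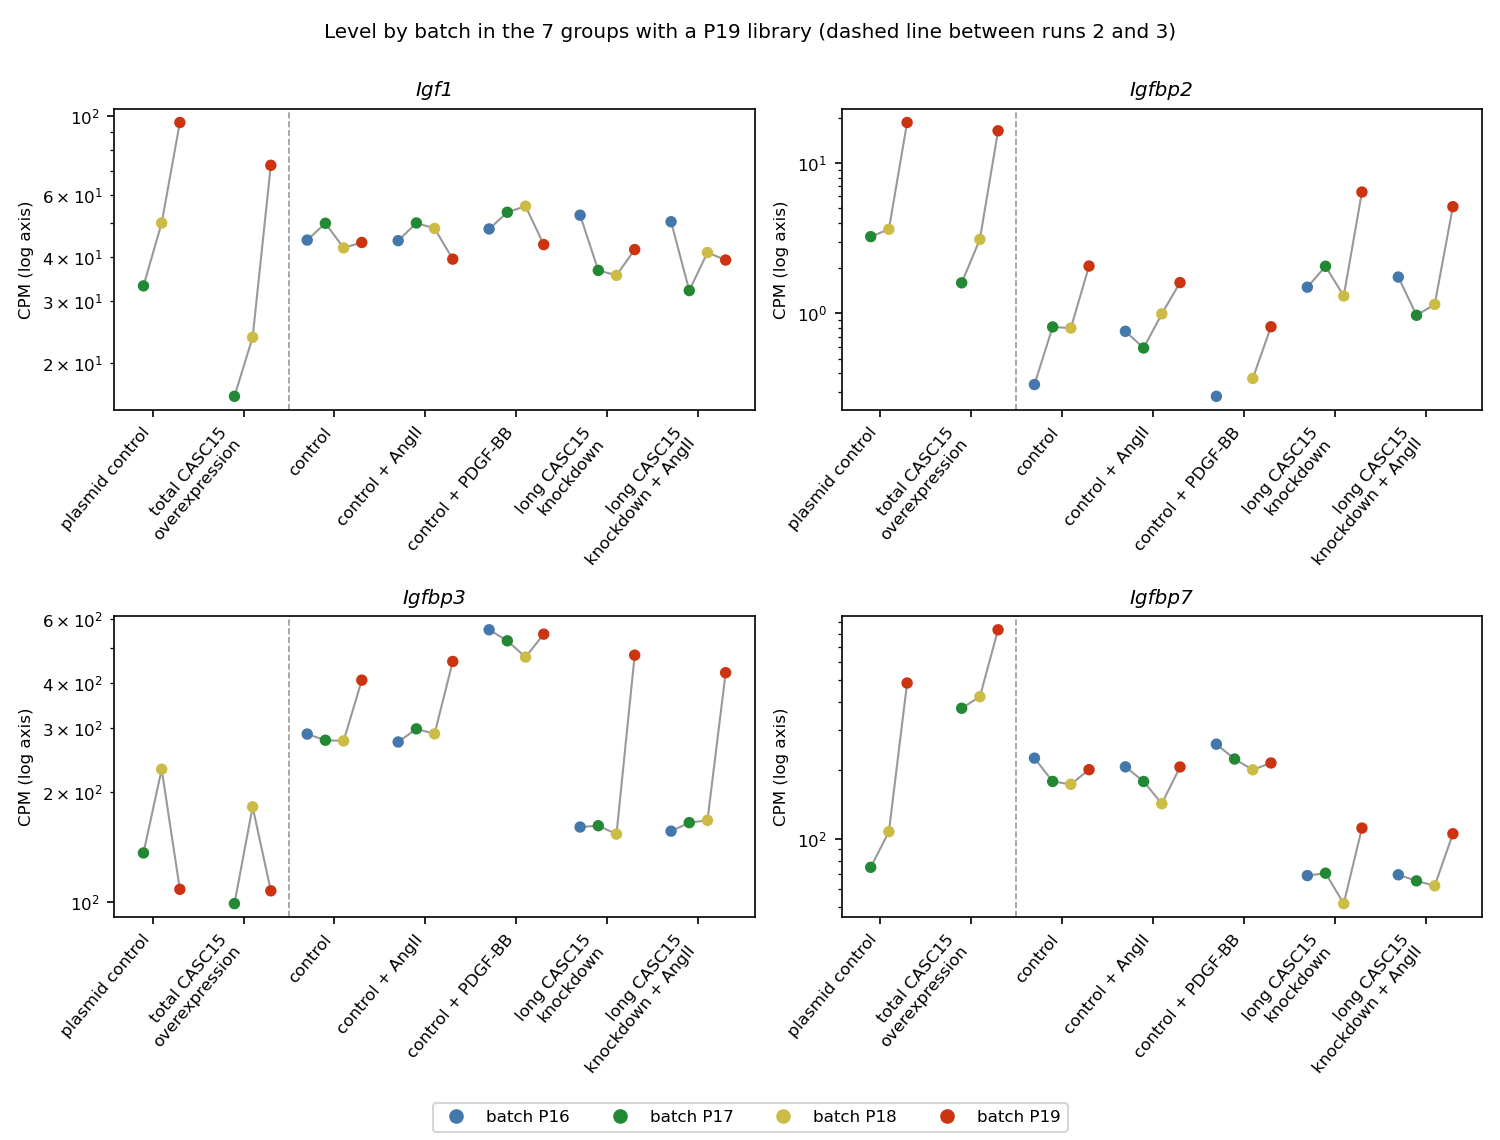
CPM on a log axis of Igf1, Igfbp2, Igfbp3 and Igfbp7 by batch in the 7 groups that hold a P19 library; grey lines join libraries of a group, and a library with 0 counts is not drawn. Igfbp2 is highest in P19 in every group, and Igfbp3 under long CASC15 knockdown reaches 477 and 427 CPM in P19 against 154 to 168 CPM in the other batches.

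Over the 20 libraries of run 3 the members did not follow 1 pattern. The Pearson correlation of log2 CPM was -0.92 between Igf1r and Igfbp7, 0.82 between Igfbp3 and Igfbp7, and -0.88 between Insr and Igfbp4. The genes most like each member, among 10182 candidates, were Paip2 for Igf1r (0.99), Mlph for Igfbp7 (0.98), Fscn1 for Irs1 (0.98), Pik3r3 for Igfbp3 (0.98) and Satb1 for Insr (0.96). Eno1 was most like Igfbp4 (0.95), Trappc2l most like Igfbp2 (0.92), Tmem214 most like Igf1 (0.84) and Prepl most like Igfbp6 (0.58). The libraries share conditions, batches and depth, so these values describe the data and carry no test.

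Among the other 70 pathway genes, 58 were tested in each run. Under PDGF-BB 10 rose and 22 fell without the block (55.2% called, against 43.6% of all genes), and the median log2 fold change was -0.05 against -0.02 over all genes. Under long CASC15 knockdown 15 rose and 6 fell untreated (36.2% against 25.0% of all genes, median 0.11 against 0.02), and 19 rose and 8 fell under angiotensin II (46.6% against 26.7%, median 0.13 against 0.01). With the replicate block, 14 rose and 24 fell under PDGF-BB (65.5% against 54.5% of all genes), 20 rose and 11 fell under untreated knockdown (53.4% against 40.6%), and 24 rose and 10 fell under knockdown with angiotensin II (58.6% against 41.3%). Overexpression gave 1 higher and 1 lower (3.45% against 1.65% of all genes), and the labelled total knockdown 1 higher (1.72% against 2.07%). With the replicate block these last counts grew to 9 higher and 10 lower (32.8% against 17.7%), and to 5 higher and 9 lower (24.1% against 14.4%). Whether the list differs from other genes was not tested.

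Of 5 genes tested that cleave binding proteins or inhibit their proteases, 2 rose and 1 fell under PDGF-BB, where 43.6% of all genes were called, so the values of single genes are described. Stc1, whose product stanniocalcin inhibits PAPP-A, rose from 4.37 ± 0.873 to 32.6 ± 8.19 CPM (SD, n = 4 each), a log2 fold change of 2.91 ± 0.246 (edgeR adjusted p = 1.85e-08). Stc2, its relative, rose from 19.9 ± 2.25 to 41.8 ± 4.43 CPM, while Htra1, a serine protease that cleaves binding proteins, fell from 83.1 ± 7.57 to 47.0 ± 3.43 CPM. Stc2 was also the 1 gene called in the labelled total knockdown (21.1 ± 2.00 against 8.95 ± 1.83 CPM, SD, n = 2 each; edgeR adjusted p = 0.0300). Adam12, another such protease, rose under overexpression to 11.3 ± 5.87 from 3.55 ± 0.396 CPM (SD, n = 3 each; edgeR adjusted p = 0.0483). Htra1 fell under long CASC15 knockdown too, by 0.56 untreated and by 0.39 with angiotensin II (log2), where 1 and 0 of these 5 genes rose and 2 fell (25.0% and 26.7% of all genes called).

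Inhibitors of receptor and docking protein signalling went in both directions. Grb14, which binds and blocks the insulin receptor, fell by 0.78 under PDGF-BB and by 0.66 and 0.68 under long CASC15 knockdown (log2, untreated and angiotensin II). Ptpn2, a phosphatase of receptor tyrosine kinases, rose by 0.41 under PDGF-BB and fell by 0.82 and 1.01 under the knockdown. Enpp1, which inhibits the insulin receptor, fell by 2.34 under overexpression (edgeR adjusted p = 0.0160), from 11.6 ± 5.13 to 2.30 ± 0.235 CPM (SD, n = 3 each). It was the 1 inhibitor of 6 called there, and with the replicate block it fell and 4 others rose, Grb14, Ptpn2, Ptpn1 and Socs3, by 0.27 to 0.55 (17.7% of all genes called; Ptpn1 and Socs3 are named here after their values were seen). Of the 6 inhibitors, 2 rose and 2 fell under PDGF-BB (43.6% of all genes called). Under long CASC15 knockdown 2 rose and 3 fell untreated (25.0% of all genes called), and 1 rose and 3 fell with angiotensin II (26.7%).

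Downstream of the receptors, PDGF-BB lowered Pik3r1, a regulatory subunit of PI3 kinase, from 207 ± 2.81 to 143 ± 10.4 CPM, and the docking protein gene Gab1 from 119 ± 3.99 to 78.0 ± 5.28 CPM (SD, n = 4 each). Rps6kb1, a kinase downstream of mTOR, rose by 0.39 (log2, edgeR adjusted p = 3.20e-05). Long CASC15 knockdown raised Tsc1, a brake on mTOR, by log2 fold changes of 0.49 and 0.67, and Gsk3b, a kinase that AKT inhibits, by 0.44 and 0.46 (untreated and angiotensin II). Phlpp1, an AKT phosphatase, fell by 0.59 and 0.54.

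FOXO factors and genes they are known to activate were read as lists of 4 and 11. Under PDGF-BB 3 of the 4 factors were called, and Foxo1, Foxo3 and Foxo4 fell by 0.64, 0.48 and 0.35 (log2), while Foxo6 gave 0.20 (edgeR adjusted p = 0.385). There 8 of 11 target genes fell and 1 rose, where 43.6% of all genes were called (3570 higher and 3016 lower). Insr, itself on the target list, is 1 of the 8. Under long CASC15 knockdown 5 of 11 targets rose and 0 fell untreated (25.0% of all genes called), and 4 rose and 0 fell with angiotensin II (26.7%). With the replicate block 6 rose and 1 fell untreated, and 7 rose and 1 fell with angiotensin II (40.6% and 41.3% of all genes called). With the block 1 rose and 10 fell under PDGF-BB (54.5% of all genes called), 0 rose and 6 fell under overexpression (17.7%), and 1 rose and 3 fell in the labelled total knockdown (14.4%). Without it these last comparisons had 0 targets called by edgeR (3 and 1 at an unadjusted p under 0.05) and 0 by DESeq2. The 1 target that fell with the block in both long CASC15 knockdown settings was Txnip, an inhibitor of thioredoxin. It fell by 0.24 untreated and by 0.31 with angiotensin II (log2, edgeR adjusted p = 0.00174 and 0.000110 with the block). Under long CASC15 knockdown Foxo1 rose by 0.37 both untreated and with angiotensin II. With both groups under angiotensin II, Foxo3 and Foxo4 were higher with the knockdown than in controls, by 0.22 and 0.42. For the same knockdown Foxo6 gave 0.29 untreated and 0.28 with angiotensin II and was called by neither fit. In the untreated knockdown Foxo4 gave 0.10 and was called by neither fit. Foxo3 gave 0.12 there and was called with the replicate block (edgeR adjusted p = 0.0227) but not without it (0.206). Pdk4, which restrains glucose oxidation, rose under long CASC15 knockdown by 1.05 untreated and by 1.03 with angiotensin II. Sesn1, a restraint on mTOR, rose there by 0.60 and 0.61. The FOXO genes and Txnip were named after their values were seen.

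**Figure D5:**
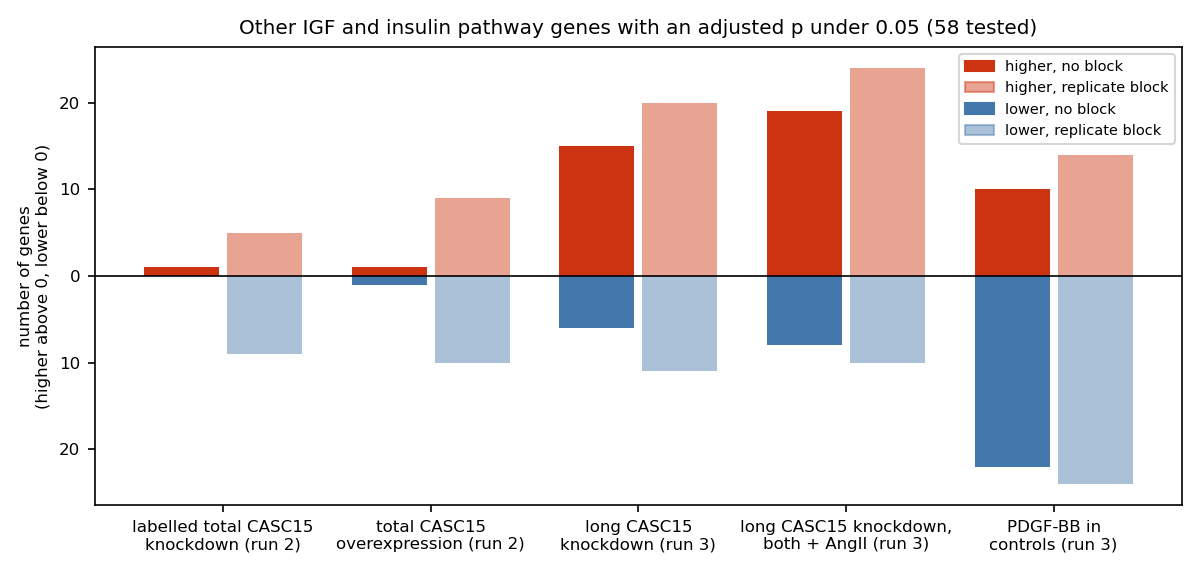
Number of the other IGF and insulin pathway genes with an edgeR adjusted p under 0.05 in 5 comparisons (58 tested), higher above and lower below 0, without (dark) and with (pale) the replicate block. PDGF-BB gives more lower than higher calls (22 against 10), and long CASC15 knockdown more higher than lower (15 against 6 untreated).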

How the data were processed

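Total RNA of 30 libraries was sequenced as read pairs. Values are expected counts of each gene, made by the authors with RSEM 1.3.1 and deposited as 1 table; STAR 2.7.11b is also named, per the submitters' processing notes. Those notes list the builds GRCm39 and mm10 without their role; annotation and strandedness are not given in the sources used here. Replicates were not pooled.

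Expected counts were rounded. Symbols came from GENCODE M21 by Ensembl identifier (51486 of 78334, with 98.7% of counts), and exon lengths from the same annotation. Libraries were grouped by the code in their names, because some titles number the target upward across replicates. Each run was fitted separately in edgeR 4.0.16 (R 4.3.3): filterByExpr (minimum count 10, minimum total 15; 15350 and 15103 genes kept), TMM scaling, glmQLFit with robust dispersion, 1 coefficient per group, two-sided glmQLFTest and Benjamini-Hochberg adjustment. The code was tested on simulated data. Alternatives were DESeq2 1.42.0, RLE scaling, no filter, a mean of at least 1 CPM, only the groups compared, batch as a replicate block and each library left out; leaving out all P19 libraries was added after the data were seen. The batch label is shared by same-numbered libraries, whose deviations from group means correlated at 0.230 on average in run 2 and 0.197 in run 3 (other pairs -0.121 and -0.0606), so the pairing comes from the labels. In no pair of libraries of a group did the counts agree within sampling noise (chi-square per degree of freedom 4.22 to 74.6). Limits from a count of 0 cover counting error only.

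The members and lists were chosen with earlier results of these data known. The 10 members are all named. Pathway genes are named by rule: in each comparison the 4 called genes with the lowest adjusted p in each direction with a mean of at least 1 CPM; and for each member the gene of highest Pearson correlation of log2 CPM (prior count 2) with a mean of at least 5 CPM.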

Additional observations from a re-analysis of the deposited data

Results flagged for a closer look

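In groups of 4 libraries, the gap between the highest or lowest library and its nearest neighbour was set against the range of the group (Dixon's ratio at its 95% limit for 4 values). Of 47 gene and group pairs 9 passed, and 7 of these were the library of batch P19; chance flags about 1 in 20 groups. One of the 7, Igfbp5, rests on 2 counts against libraries at 0, where any count would pass, so it says nothing about P19. The genes share libraries, and libraries of a batch are not independent across groups.

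Igfbp3 stood apart in P19 in 4 groups. It was 407 CPM in the untreated control (others 277 to 289), 458 CPM in the control under angiotensin II (275 to 299), 477 CPM under long CASC15 knockdown (154 to 162) and 427 CPM under long CASC15 knockdown with angiotensin II (156 to 168). Igfbp2 in P19 was 6.42 CPM under untreated long CASC15 knockdown (121 counts, others 24 to 37 counts). Igfbp7 in P19 was 105 CPM under long CASC15 knockdown with angiotensin II (61.9 to 69.3). Igfbp5 in P19 was 0.106 CPM under untreated long CASC15 knockdown, from 2 counts, where the others had 0.

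The remaining values were from P18. Insr was 70.1 CPM there under PDGF-BB (others 66.1 to 66.6), a small gap in a tight group. Igfbp6 was 0.150 CPM under long CASC15 knockdown with angiotensin II, from 3 counts (others 0.648 to 0.719).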

How the results depend on the processing

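The calls of Igf1r, Irs1 and Igfbp7 under long CASC15 knockdown, with and without angiotensin II, and of Insr, Irs1 and Igfbp4 under PDGF-BB kept direction and threshold in all 15 alternatives each. Counts of members called moved as follows. With the replicate block they were 2 for the labelled total knockdown and 3 for overexpression (0 each without), 5 for long CASC15 knockdown under angiotensin II (3 without) and 6 for PDGF-BB (3 without); the block moved the untreated knockdown from 3 to 4 and changed no other call of a member. With no filter they were 2 for the labelled total knockdown and 3 (Igf1, Irs1 and Igfbp7) for overexpression, and with only the groups compared 2 for the former and 4 for PDGF-BB (with Igfbp3). DESeq2 gave 1 for overexpression. Without the P19 libraries, chosen after seeing the data, the counts were 1 for overexpression, 5 for untreated knockdown, 4 for knockdown under angiotensin II and 5 for PDGF-BB. Leaving out each library gave 0 to 1 for overexpression, 1 being without the plasmid control of P19, which leaves Igfbp7 called. It gave 0 throughout for the labelled total knockdown and 3 to 4 for both long CASC15 knockdown comparisons and PDGF-BB, 4 being without the P19 library of the knockdown (with Igfbp3) or of the untreated control (with Igf1r under PDGF-BB).

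Signs that turned were all of uncalled members. Leaving out single libraries gave ranges of -0.25 to 0.12 for Igf1, -0.097 to 0.049 for Insr and -0.38 to 0.18 for Irs1 in the labelled total knockdown. For overexpression the ranges were -0.18 to 0.24 for Igf1r, -0.13 to 0.078 for Insr, -1.86 to 1.04 for Igfbp2, -0.62 to 0.078 for Igfbp3 and -0.18 to 0.22 for Igfbp4. Igfbp6 ranged from -0.46 to 0.00064 in untreated knockdown. Insr turned to 0.0052 in the labelled total knockdown with the mean CPM filter, to -0.00045 under overexpression with no filter and to 0.0016 in the knockdown under angiotensin II without P19. With RLE scaling the level of Igfbp4 in GapmeR controls was 7.23 CPM. The cause of these shifts was not tested. Precision is limited by 2 or 3 libraries per group in run 2, and by low counts of Igfbp2, Igfbp5 and Igfbp6 in run 3; the smallest difference that could be detected was not measured.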
